A study of Mus musculus with 3 samples.

Results

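Mast cells and basophils carry a small set of transcripts that few other skin cells make, and 9 of these genes were followed across single-cell libraries of mouse dorsal skin: the proteases Cpa3, Mcpt4, Cma1, Tpsb2, Tpsab1 and Mcpt8, and the receptor genes Fcer1a, Ms4a2 and Kit. They were chosen by gene symbol, and each matched 1 of the 32285 genes in the matrices. Raw UMIs (unique molecular identifiers, each counting 1 captured RNA molecule) were summed per library over mast cells, basophils and all other cells, and levels are given as CPM, the UMIs of a gene per 1000000 UMIs of all genes in the same cells. A cell was called a mast cell when at least 3 of the 5 genes Cpa3, Mcpt4, Cma1, Tpsb2 and Kit were detected in it. Among the remaining cells, a basophil had a UMI of Mcpt8 and at least 2 of the 6 genes Fcer1a, Ms4a2, Cd200r3, Hdc, Gata2 and Il4.

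There were 3 groups with 1 library each, all from males of strain C57Bl/6 at 8 weeks of age with hair follicles in telogen, the resting phase. WT_Ctrl was wild-type skin without UVB. WT_UV was wild-type skin after 3 UVB exposures, and RP_UV was skin of RP mice after 3 UVB exposures, which the methods place on day 5. RP mice carry Rosa26-rtTA and Tre-Ptgs2, so that doxycycline drives rat Ptgs2, the gene of cyclooxygenase-2, in all tissues. Immune cells were enriched with CD45 beads. The labels place WT_Ctrl and RP_UV on 1 sequencing flow cell and WT_UV on another, so that flow cell and group cannot be told apart in comparisons with WT_UV. RP_UV against WT_Ctrl shares a flow cell but differs at least in genotype and UVB. The study's methods do not say whether the wild-type mice of these libraries received doxycycline. With 1 library per group there was no replicate check and no test was possible. All intervals are exact 95% intervals that cover counting error only.

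Connective tissue mast cells of the skin store proteases in granules, bound to the proteoglycan serglycin. Chymases and tryptases are serine proteases, and carboxypeptidase A3 trims peptides from their C-terminal end. Mast cells and basophils bind IgE through the high-affinity receptor, in which the alpha chain (Fcer1a) holds IgE and the beta chain (Ms4a2) and gamma chain (Fcer1g) carry the signal. Kit, the receptor of stem cell factor, sustains mature mast cells, while mature basophils lack it.

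By RefSeq on GRCm38.p6, the build named for these data (mm10), the proteases lay in 3 places. The mast cell chymase genes Cma1 (chr14:55941451-55944675) and Mcpt4 (chr14:56059744-56062310) and the basophil protease gene Mcpt8 (chr14:56082163-56085499) share a cluster, and the tryptase genes Tpsab1 (chr17:25343245-25345562) and Tpsb2 (chr17:25366308-25368096) another. Cpa3 lies apart at chr3:20215616-20242209. The receptor genes were Fcer1a at chr1:173221269-173227232, Ms4a2 at chr19:11615517-11623790 and Kit at chr5:75574987-75656722. RefSeq lists 8 of the 9 as protein coding and Tpsab1 as a transcribed pseudogene. Reads shared by the neighbouring paralogs could have been split or dropped in counting, so small counts of Tpsab1 are uncertain.

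The bases just upstream of 5 of the genes are shown because each stretch holds letters bound by GATA factors. Of these factors, Gata2 is a regulator of mast cells and basophils. The 5 genes were not generally detected together. Only a minority of mast cells of any library held Fcer1a, and basophils lacked Mcpt4 and Cma1. Of the 9 genes, 7 had an entry in the RefSeq promoter table of GRCm38.p6. The 250 bases before each start site were searched on both strands for GATA letters (AGATAA or TGATAA, or the same ending in G as AGATAG or TGATAG) and for the E-box letters (CACGTG or CATGTG) that can be read by Mitf. A GATA match was found for 5 of the 7 genes, against 26.5% of all 32851 promoters of that length, and an E-box match for Fcer1a alone, against 17.6%. Mcpt8 and Kit held neither in this window. The sequences run 5′ to 3′ along the gene, with matches in capitals, and stop where the annotated gene begins. All 5 lie on the minus strand.
Cpa3 (chr3:20242210-20242431): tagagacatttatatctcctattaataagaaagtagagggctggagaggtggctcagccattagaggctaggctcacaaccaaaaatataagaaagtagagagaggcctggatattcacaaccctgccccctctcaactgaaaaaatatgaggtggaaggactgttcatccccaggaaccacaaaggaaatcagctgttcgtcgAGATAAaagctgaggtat
Mcpt4 (chr14:56062311-56062560): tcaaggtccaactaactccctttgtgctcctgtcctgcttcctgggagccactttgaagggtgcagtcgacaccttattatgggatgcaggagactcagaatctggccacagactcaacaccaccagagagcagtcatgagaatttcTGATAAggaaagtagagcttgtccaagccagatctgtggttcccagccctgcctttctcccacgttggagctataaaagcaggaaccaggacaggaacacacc
Cma1 (chr14:55944676-55944925): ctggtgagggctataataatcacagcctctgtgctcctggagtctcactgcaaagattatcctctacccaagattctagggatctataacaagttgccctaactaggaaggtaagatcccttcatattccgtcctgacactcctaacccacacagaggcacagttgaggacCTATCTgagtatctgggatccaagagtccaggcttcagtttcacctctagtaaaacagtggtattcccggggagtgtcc
Fcer1a (chr1:173227233-173227479): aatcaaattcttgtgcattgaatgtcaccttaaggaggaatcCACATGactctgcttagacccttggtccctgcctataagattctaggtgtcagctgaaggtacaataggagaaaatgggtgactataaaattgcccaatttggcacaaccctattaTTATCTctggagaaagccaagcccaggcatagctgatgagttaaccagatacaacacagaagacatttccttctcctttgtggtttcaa
Ms4a2 (chr19:11623791-11623969): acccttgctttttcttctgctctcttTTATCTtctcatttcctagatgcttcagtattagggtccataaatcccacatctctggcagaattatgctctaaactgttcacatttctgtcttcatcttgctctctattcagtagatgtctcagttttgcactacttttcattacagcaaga
The Cpa3 match ended 41 bases before the start site, that of Cma1 74, that of Fcer1a 87 and that of Mcpt4 98, counting the base before the start as 1. TTATCT and CTATCT are AGATAA and AGATAG read on the other strand. Ms4a2 held 2 further GATA matches closer to its start that fall inside its annotated gene and are not printed. These matches describe the letters and are not shown to be binding sites.

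In the order WT_Ctrl, WT_UV and RP_UV, the order of all values given without a library name, the filters of the study kept 5309, 5225 and 6070 cells with a median of 4246, 10557 and 3774 UMIs. Of these, 34, 102 and 49 were mast cells, which is 0.64% (0.444 to 0.894), 1.95% (1.59 to 2.36) and 0.807% (0.598 to 1.07) of kept cells. With every cell thinned to 500 UMIs, the gate took 33, 96 and 43 cells (0.622%, 1.84% and 0.708%), so that the share in WT_UV stood above the others at equal depth too. These are shares after bead enrichment, with 1226, 546 and 1076 cells with keratinocyte markers still among the cells, and not shares of skin. The 9 genes together made up 9% of all mast cell UMIs in WT_Ctrl, 6.57% in WT_UV and 5.35% in RP_UV, against 0.000703% to 0.00149% in the other cells. These shares include mast cells that also held RNA of other cell types. In the purer set of the next paragraph, Mcpt4, the highest of the 9 genes, stood at 41331, 39799 and 37156 CPM. By the gate of at least 3 genes it stood at 33687, 28436 and 19793. The joint share was not computed in the purer set. Pairs of libraries shared 8 to 11 cell barcodes.

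The gate used 5 of the 9 genes, so that their excess in mast cells over other cells follows from it. Mast cells were shallow, with a median of 1098, 1766 and 1255 UMIs. Some also held RNA of other cell types. As many as 4, 18 and 16 mast cells (11.8%, 17.6% and 32.7%) had at least 3 detected markers of another cell type, most often of macrophages. The 6 macrophage markers summed to 1074, 2059.9 and 7013 CPM in the mast cells. In RP_UV, the 9 mast cells with exactly 3 gate genes held a median of 5 UMIs of these genes, against 136.5 in cells with all 5. Levels and folds in mast cells were therefore also computed in a purer set, chosen after the data had been seen. Its cells had at least 4 of the 5 gate genes and fewer than 3 markers of any other type. The purer set held 28, 76 and 30 cells, in which the macrophage markers summed to 121, 182 and 413 CPM. Levels are summed over UMIs, so that deep cells weigh more. The purer set kept 41204, 153898 and 38782 of the 54918, 268465 and 106804 mast cell UMIs. Most mast cell UMIs of RP_UV thus lay in the cells left out of it. The stricter gate asks more of Tpsb2 and Kit, and so raises their levels by selection. A looser gate of at least 2 genes adds the 3, 37 and 17 cells with exactly 2 gate genes. These had a median of 3093, 13892 and 4333 UMIs, but only 2, 2 and 3 UMIs of the gate genes.

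**Figure D1:**
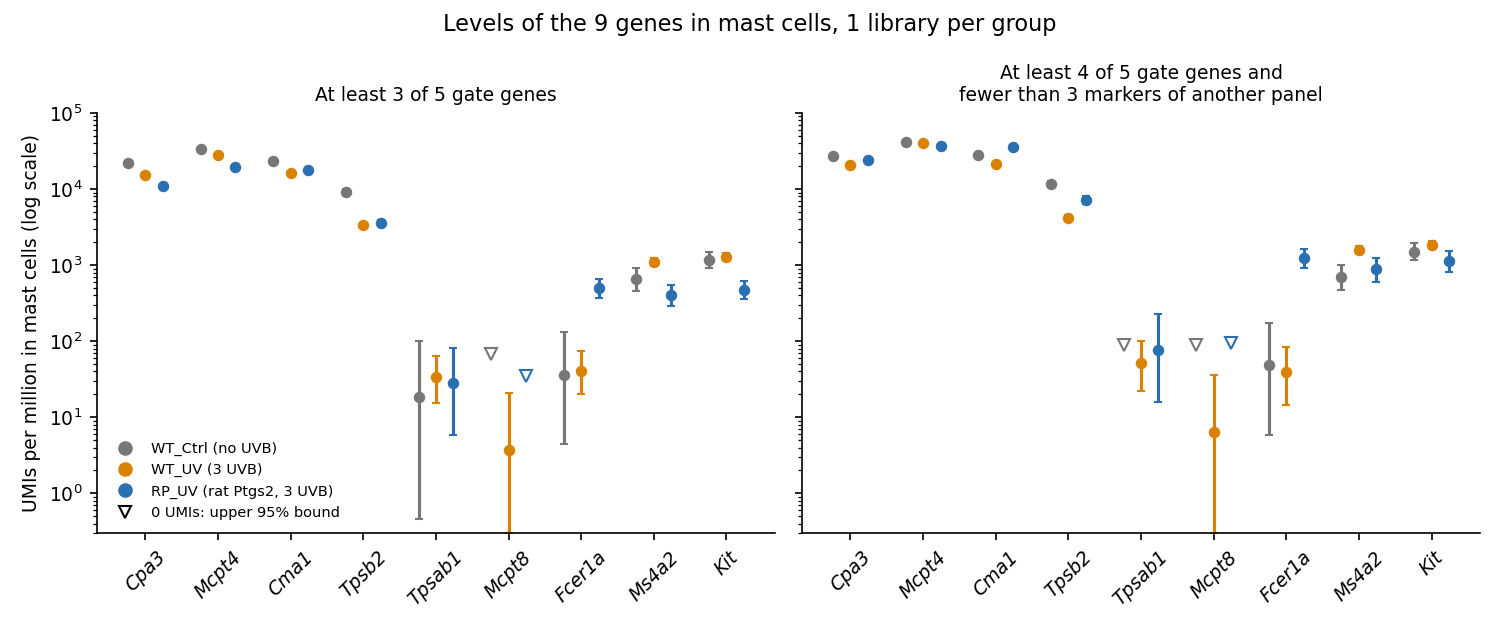
CPM in mast cells (log axis) for the 9 genes in WT_Ctrl, WT_UV and RP_UV, with points for each library, bars for exact Poisson 95% intervals and open triangles for the upper bound where no UMI was counted; the left panel has the main gate and the right panel the purer set. Fcer1a of RP_UV stands above both wild-type libraries in both panels, and Tpsb2 is highest in WT_Ctrl in both.

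Mcpt4, a chymase, had the highest level of the 9 genes in mast cells of every library (levels count 3′ ends and are not corrected for length). It had 1850 UMIs in WT_Ctrl, 7634 in WT_UV and 2114 in RP_UV, or 33687 (32169 to 35257), 28436 (27801 to 29081) and 19793 (18958 to 20655) CPM. Cma1, the other chymase, stood at 23125 (21871 to 24433), 16036 (15560.1 to 16522) and 17687 (16898 to 18503) CPM. Cpa3, carboxypeptidase A3, stood at 22160.3 (20933 to 23441), 15462 (14995 to 15939.6) and 11067 (10445 to 11716) CPM. All 3 genes were thus highest in WT_Ctrl by the main gate. In the purer set Cma1 was highest in RP_UV instead, at 27837, 21644 and 35661 CPM.

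WT_UV over WT_Ctrl, these 3 proteases were lower by less than 2-fold, 1.18-fold (1.13 to 1.25) for Mcpt4, 1.43-fold (1.34 to 1.53) for Cpa3 and 1.44-fold (1.35 to 1.54) for Cma1. RP_UV over WT_UV, Cpa3 was 1.4-fold (1.31 to 1.49) and Mcpt4 1.44-fold (1.37 to 1.51) lower, and Cma1 1.1-fold (1.04 to 1.16) higher. In the purer set Cpa3 turned to 1.15-fold (1.07 to 1.24) higher in RP_UV and Mcpt4 was 1.07-fold (1.01 to 1.14) lower, while Cma1 was 1.65-fold (1.55 to 1.75) higher. With only the cells holding 3 markers of another type left out, Cpa3 was 1.17-fold higher in RP_UV than in WT_UV. With a gate of at least 2 genes, Cpa3 was 1.16-fold (1.09 to 1.24) and Mcpt4 1.13-fold (1.08 to 1.19) higher. RP_UV over WT_Ctrl, Cpa3 was 2-fold (1.85 to 2.17) lower by the main gate and 1.12-fold (1.02 to 1.22) lower in the purer set. Mcpt4 was 1.7-fold (1.6 to 1.81) and 1.11-fold (1.04 to 1.19) lower. Cma1 turned from 1.31-fold (1.22 to 1.4) lower by the main gate to 1.28-fold (1.18 to 1.39) higher in the purer set.

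The ratio between proteases needs no scaling to other RNA in the cells. There were 1.46 UMIs of Mcpt4 for each UMI of Cma1 in WT_Ctrl, 1.77 in WT_UV and 1.12 in RP_UV. Cma1 per Cpa3 was 1.04 in both wild-type libraries and 1.6 in RP_UV. Mcpt4 per Cpa3 was 1.52, 1.84 and 1.79. Cma1 was thus higher relative to both other proteases in RP_UV than in either wild-type library.

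Tpsb2, a tryptase gene, was the member that was lower by at least 2-fold in wild-type mast cells after UVB. It had 501 UMIs in WT_Ctrl, 897 in WT_UV and 383 in RP_UV, or 9123 (8341 to 9958), 3341 (3126 to 3567) and 3586 (3236 to 3964) CPM. The cells of all 3 libraries overlapped, from 0 UMIs up to 81, 81 and 44, with medians of 7.5, 3 and 4. WT_UV over WT_Ctrl, Tpsb2 was 2.73-fold (2.44 to 3.05) lower, and only 154 of 4630 measured genes had a lower fold. It was 2.07- to 7.06-fold lower under all 15 alternative settings, and 2.76-fold (2.45 to 3.12) lower in the purer set.

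After thinning to 500 UMIs, 88.2% of mast cells of WT_Ctrl had a UMI of Tpsb2 (72.5 to 96.7), against 55.9% in WT_UV (45.7 to 65.7) and 67.3% in RP_UV (52.5 to 80.1). Unthinned shares were 91.2%, 80.4% and 79.6%. Relative to 100 UMIs of Cpa3, Mcpt4 and Cma1 together, there were 11.6, 5.57 and 7.39 UMIs of Tpsb2. RP_UV over WT_Ctrl it was 2.54-fold (2.22 to 2.91) lower by the main gate and 1.58-fold (1.36 to 1.84) lower in the purer set, under the 2-fold limit. Between RP_UV and WT_UV the levels differed 1.07-fold (0.95 to 1.21) by the main gate, and RP_UV was 1.75-fold (1.51 to 2.01) higher in the purer set.

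Tpsab1, the neighbouring tryptase gene, is known to be inactivated in C57BL/6 mice by a splice site change. It had 1, 9 and 3 UMIs in mast cells, in 1, 3 and 3 cells. In WT_UV a single cell held 77.8% of them. No difference could be read at this depth.

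The alpha chain of the IgE receptor gave the largest fold between libraries among the 9 genes in mast cells. Mast cells held 2 UMIs of Fcer1a in WT_Ctrl, 11 in WT_UV and 53 in RP_UV, or 36.4 (4.41 to 132), 41 (20.5 to 73.3) and 496 (372 to 649) CPM. The wild-type libraries did not differ beyond counting error, and the RP_UV interval lay above both of theirs. RP_UV over WT_UV, the level was 12.1-fold (6.25 to 25.7) higher, and over WT_Ctrl 13.6-fold (3.59 to 115) higher. Of 5113 genes measured in the former comparison, 21 had a higher fold. In the purer set Fcer1a stood at 48.5, 39 and 1238 CPM, 31.7-fold (13.6 to 90.8) higher in RP_UV than in WT_UV, and none of the 3117 genes measured had a higher fold. This ranking was made after its values had been seen. All 15 alternatives gave a fold of at least 10.4 over WT_UV and at least 8.46 over WT_Ctrl.

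A UMI of Fcer1a was seen in 2 of 34, 7 of 102 and 15 of 49 mast cells (5.88%, 6.86% and 30.6%). Thinned to 500 UMIs, the shares were 2.94% (0.0744 to 15.3), 1.96% (0.238 to 6.9) and 18.4% (8.76 to 32). At 1000 UMIs, with fewer cells, they were 0 of 18, 7.23% (2.7 to 15.1) and 17.6% (6.76 to 34.5), so that at this depth the intervals of WT_UV and RP_UV overlapped. A cell held at most 1 UMI in WT_Ctrl, 3 in WT_UV and 8 in RP_UV. The 8 UMIs of the highest cell were 15.1% of the 53 UMIs of RP_UV. The cells with most held 8, 8, 7, 7 and 7 UMIs, and every other positive cell held 3 or fewer. Most of the RP_UV level thus rested on few cells of 1 library. Other cells had Fcer1a in 1 of 5275, 0 of 5111 and 7 of 6018 cells.

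Most Fcer1a-positive cells of RP_UV held the other receptor genes too. Of these 15 cells, 12 also had Ms4a2, 11 had Kit and 10 had both. Their median depth was 1328 UMIs, against 1210 in the other mast cells. None held Mcpt8, and 49 of the 53 UMIs lay in cells with fewer than 3 markers of another type. Relative to 100 UMIs of Ms4a2 there were 5.56 of Fcer1a in WT_Ctrl, 3.7 in WT_UV and 123 in RP_UV. Fcer1g, the gamma chain, which is also made by macrophages and was picked out after its values had been seen, stood at 2713, 2779 and 4344 CPM, and at 2524, 2911 and 4461 in the purer set, 1.53-fold (1.28 to 1.83) higher in RP_UV than in WT_UV.

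**Figure D2:**
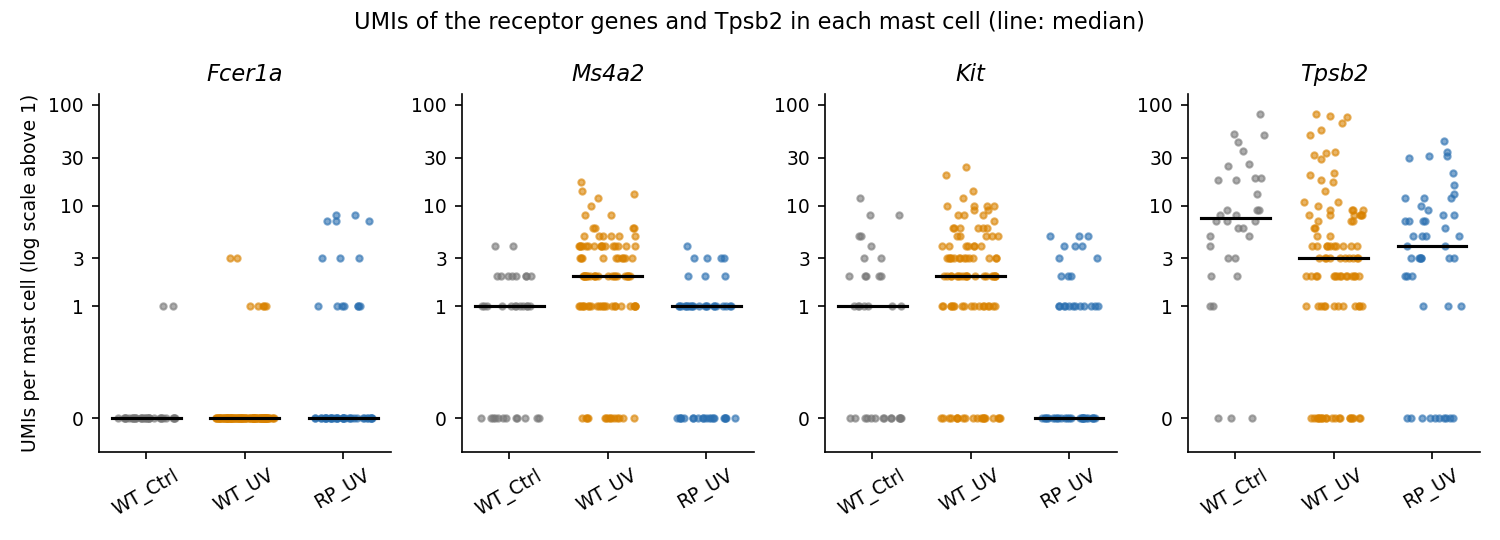
UMIs of Fcer1a, Ms4a2, Kit and Tpsb2 (vertical axis, log scale above 1) in each of the 34, 102 and 49 mast cells of WT_Ctrl, WT_UV and RP_UV, with a line at the median. Cells with more than 3 UMIs of Fcer1a occur in RP_UV alone, while Ms4a2 and Kit reach their highest counts in the deeper WT_UV library.

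Ms4a2, the beta chain, had 36, 297 and 43 UMIs in mast cells, or 656 (459 to 908), 1106 (984 to 1239.5) and 403 (291 to 542) CPM. It was highest in WT_UV. RP_UV over WT_UV it was 2.75-fold (1.99 to 3.88) lower, and lower by 1.71- to 2.96-fold under all alternatives. The purer set gave 1.8-fold (1.25 to 2.66), under the 2-fold limit. RP_UV over WT_Ctrl, Ms4a2 was 1.63-fold (1.02 to 2.6) lower by the main gate and 1.25-fold (0.737 to 2.12) higher in the purer set.

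WT_UV over WT_Ctrl, Ms4a2 was 1.69-fold (1.19 to 2.46) higher by the main gate and 2.24-fold (1.52 to 3.42) higher in the purer set, but 1.54-fold (1.06 to 2.18) lower with a gate of at least 2 genes. Per 1000 UMIs of the proteases Cpa3, Mcpt4 and Cma1 there were 8.3 UMIs of Ms4a2 in WT_Ctrl, 18.5 in WT_UV and 8.29 in RP_UV. On that scale WT_UV thus stood apart, and the other 2 libraries were level, with a ratio of 0.999 (0.627 to 1.6). WT_UV was also the library with a flow cell of its own and with more UMIs per cell.

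Kit had 65, 345 and 51 UMIs in mast cells, or 1184 (913 to 1509), 1285 (1153 to 1428) and 478 (356 to 628) CPM. The wild-type libraries did not differ beyond counting error, at 1.09-fold (0.831 to 1.44), although WT_UV was 2.17-fold (1.64 to 2.83) lower with a gate of at least 2 genes. RP_UV was 2.69-fold (2 to 3.69) lower than WT_UV and 2.48-fold (1.69 to 3.65) lower than WT_Ctrl. These folds were 1.62-fold (1.18 to 2.28) and 1.33-fold (0.887 to 2) in the purer set, so that neither passed the 2-fold limit. The direction against WT_UV held under all alternatives, from 1.59- to 2.93-fold. Per 1000 protease UMIs there were 15, 21.4 and 9.84 of Kit.

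Thinned to 500 UMIs, Kit was found in 38.2%, 44.1% and 24.5% of mast cells, with intervals that overlapped (22.2 to 56.4, 34.3 to 54.3 and 13.3 to 38.9). Ms4a2 was found in 38.2%, 43.1% and 30.6%. Unthinned shares were 58.8%, 80.4% and 46.9% for Kit and 64.7%, 86.3% and 59.2% for Ms4a2. Thinned to 1000 UMIs, which left 18, 83 and 34 cells, Kit was found in 66.7% (41 to 86.7), 69.9% (58.8 to 79.5) and 35.3% (19.7 to 53.5), and Ms4a2 in 55.6% (30.8 to 78.5), 68.7% (57.6 to 78.4) and 47.1% (29.8 to 64.9). By the main gate, both receptor genes were thus seen in the smallest share of cells in RP_UV at either depth. At 1000 UMIs the Kit intervals of WT_UV and RP_UV did not overlap. The 34 cells of RP_UV at that depth included all 16 with markers of another type. In the purer set, unthinned, Kit was found in 18 of 28, 70 of 76 and 20 of 30 cells. Ms4a2 was found in 19, 68 and 23 of these cells. Neither share was smallest in RP_UV, but no intervals were computed for them. The gate of the purer set also asks more of Kit, so that its Kit shares follow in part from selection. Thinned shares were not computed in the purer set.

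**Figure D3:**
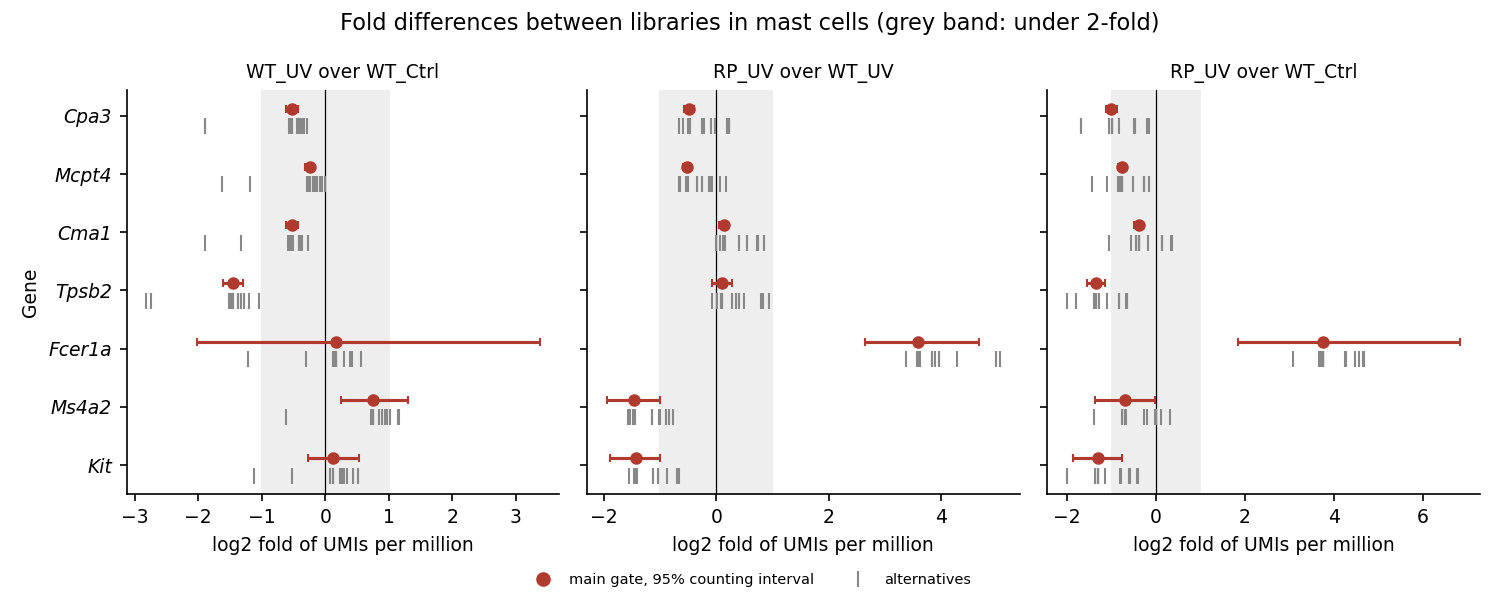
Log2 folds of CPM between libraries in mast cells for 7 genes, with red points and 95% counting intervals for the main gate, grey ticks for the alternative settings and a grey band for folds under 2. Fcer1a lies right of the band for RP_UV under every setting and Tpsb2 left of it for WT_UV over WT_Ctrl, while the ticks of Cpa3 cross 0 for RP_UV over WT_UV.

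By a fold of at least 2 with at least 10 UMIs over both libraries, the 9 genes divided as follows in mast cells. WT_UV over WT_Ctrl, 0 were higher (16.6% of all genes measured were) and 1, Tpsb2, was lower (8.42% were), with 7 in between and 1, Mcpt8, under the minimum. RP_UV over WT_UV, 1 was higher (11.4% of all genes), namely Fcer1a, and 2 were lower (17.7%), Ms4a2 and Kit, with 5 in between and 1 under the minimum. RP_UV over WT_Ctrl, 1 was higher (20.8%), Fcer1a again, and 3 were lower (12.7%), Cpa3, Tpsb2 and Kit, with 3 in between and 2 under the minimum. None was 2-fold lower in RP_UV over WT_UV or over WT_Ctrl within the purer set (18.3% and 13% of all genes were). By the main gate, the members' median log2 fold was -0.06, -0.37 and -0.77 in the 3 comparisons, against 0.08, -0.09 and 0.14 over all genes. The comparisons share libraries and are not independent of each other.

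Over all kept cells, a level combines the number of mast cells and basophils with the transcripts in each. WT_UV over WT_Ctrl, 4 genes were at least 2-fold higher (6.49% of all genes) and 0 lower (16.8%). They were Mcpt8, Fcer1a, Ms4a2 and Tpsab1. The last had 10 UMIs against 1, with 70% of the 10 in a single cell and an interval of 0.568 to 173 for the fold. With at least 30 UMIs required, 3 genes were called, without Tpsab1. Ms4a2 stood at 1.47 (1.04 to 2.02) and 5.65 (5.09 to 6.26) CPM, 3.84-fold (2.74 to 5.51) higher in WT_UV. Kit reached 1.98-fold (1.67 to 2.37), while Tpsb2 was 1.36-fold (1.22 to 1.52) lower. With fewer than 4000 genes per cell in every library, Tpsb2 turned to 1.27-fold (1.14 to 1.42) higher, and with the mean over cells to 1.19-fold (1.07 to 1.33) higher.

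RP_UV over WT_UV, 1 gene was higher (18%), Fcer1a at 3.22-fold (2.14 to 4.89), and 3 were lower (10.2%). These were Kit at 3.41-fold (2.78 to 4.23), Ms4a2 at 3.23-fold (2.4 to 4.42) and Mcpt8 at 2.55-fold (1.93 to 3.43). RP_UV over WT_Ctrl, 2 were higher (9%), Fcer1a at 18-fold (5.88 to 89.7) and Mcpt8 at 59 UMIs against 0, at least 17.4-fold by the floor of 3 counts per library, and 0 were lower (9.44%). In that pair, which shared a flow cell, Kit was 1.72-fold (1.33 to 2.23) lower, Tpsb2 1.35-fold (1.18 to 1.54) lower and Cpa3 1.09-fold (1.01 to 1.18) lower. Cma1 was 1.38-fold (1.28 to 1.48) higher, while Mcpt4 at 1.04-fold (0.981 to 1.11) and Ms4a2 at 1.19-fold (0.766 to 1.86) had intervals that included no difference.

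Basophils, marked by the protease gene Mcpt8, were found only in the irradiated libraries. WT_Ctrl had no UMI of Mcpt8 in any of its 5977 barcodes and so 0 basophils among 5309 kept cells, which allows a share of up to 0.0695%. WT_UV had 12 basophils (0.23%, 0.119 to 0.401) and RP_UV had 3 (0.0494%, 0.0102 to 0.144). The WT_UV interval lay above that limit, and that of RP_UV included it. Basophils held 330 of the 334 Mcpt8 UMIs of WT_UV and 55 of the 59 of RP_UV, or 4823 (4317 to 5372) and 4423 (3332 to 5757) CPM. These levels differed 1.09-fold (0.818 to 1.48) between the libraries, and per cell they ran from 1 to 93 UMIs in WT_UV and were 46, 8 and 1 in RP_UV. The RP_UV cell with 1 UMI also had 5 markers of another cell type, and without cells under 3 UMIs the RP_UV level was 7307.

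The 12 basophils of WT_UV shared some of the 9 genes with mast cells and lacked others. Fcer1a and Ms4a2 helped to choose these cells, so that their values in basophils are a description. Fcer1a had 31 UMIs in 10 of the 12 cells, 453 CPM (308 to 643), 11.1-fold (5.41 to 24.4) above the mast cells of that library. Basophils held 73.8% of all Fcer1a UMIs of WT_UV, whereas mast cells held 86.9% of those of RP_UV. Ms4a2 was found in all 12 cells at 716 CPM (529.8 to 947), against 1106 in mast cells. Cpa3 was found in 10 of the 12 at 424 CPM (284 to 609), 36.5-fold (25.4 to 54.5) below mast cells.

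No basophil had a UMI of Mcpt4, Cma1, Tpsb2 or Kit. The gate barred cells with 3 of the 5 mast cell genes, and so left room for up to 2 of them in a basophil. At the floor of 3 counts, Mcpt4 was at least 649-fold, Cma1 at least 366-fold, Tpsb2 at least 76.2-fold and Kit at least 29.3-fold higher in the mast cells of WT_UV. Mcpt8 was counted once in mast cells of WT_UV and not at all in the others. The gate genes Hdc, which makes histamine, and Gata2 stood at 8097 and 2031 CPM in basophils of WT_UV, against 2529 and 741 in mast cells, as a description, since they helped to choose the cells.

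Among genes not used to choose them, and picked out after their values had been seen, the chemokine genes Ccl3 and Ccl4 and the cytokine gene Il6 stood out in basophils. Ccl3 had 16939 (15977 to 17943) and Ccl4 21513 (20428 to 22641) CPM in basophils of WT_UV, against 22.3 and 33.5 in mast cells. In the 3 basophils of RP_UV they stood at 9649 and 14233. Il6 stood at 2659.9 (2288 to 3076) and 2332 (1562 to 3349) in the basophils of the 2 libraries, and at 7.45 and 18.7 in their mast cells. All 15 basophils had each of these transcripts.

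**Figure D4:**
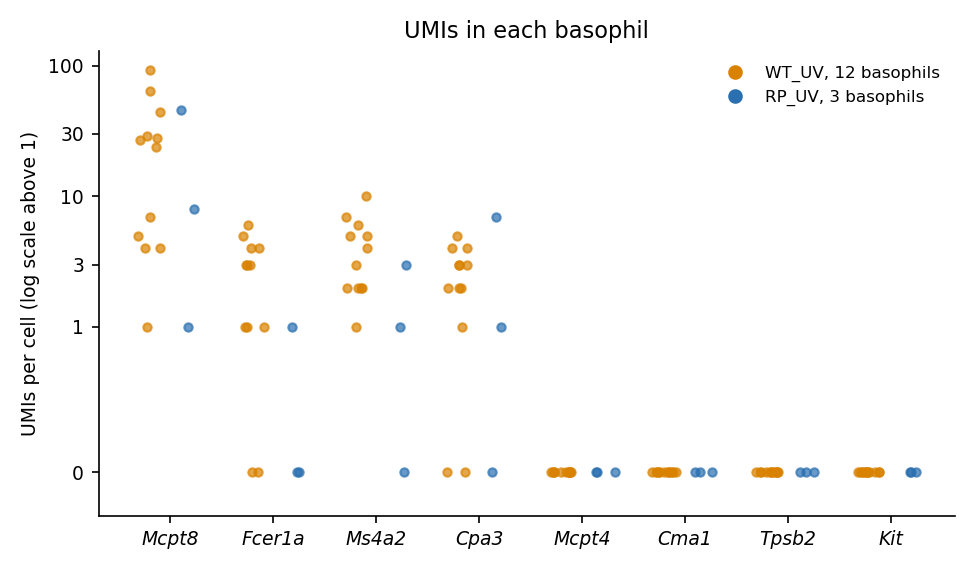
UMIs per cell (vertical axis, log scale above 1) of 8 genes in each of the 12 basophils of WT_UV and the 3 of RP_UV. Mcpt8, Fcer1a, Ms4a2 and Cpa3 have counts above 0, whereas Mcpt4, Cma1, Tpsb2 and Kit are at 0 in every cell.

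Outside mast cells and basophils, Kit was the member with a level of its own. Mast cells held 41.4%, 44.3% and 49.5% of all Kit UMIs, but 89.7% to 98.6% of those of the 4 proteases in the gate. Outside mast cells, these 4 proteases were higher in RP_UV than in WT_Ctrl, for example Cpa3 at 2.93 against 0.66 CPM, 4.44-fold (2.61 to 7.97). The libraries had 49 and 34 mast cells. In WT_UV, with 102 mast cells, Cpa3 stood at 1.01 CPM in other cells, and RP_UV was 2.89-fold (2.07 to 4.06) higher. The source of these UMIs was not tested.

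Kit in other cells was read by marker panels. Cells with melanocyte markers, 6, 1 and 6 in the 3 libraries, had 934 (483 to 1631), 975 (317 to 2276) and 339 (92.5 to 869) Kit CPM, near the level of mast cells, and Kit is known to sustain melanocytes. NK or innate lymphoid cells had 16.7, 72.6 and 51, dendritic cells 43.5, 34 and 45.5, T cells 4.52, 15.4 and 13.5, and keratinocytes, the background here, 0.374, 0.284 and 0.517. Median depth was 2995, 6836 and 1902 UMIs in NK or innate lymphoid cells and 6178, 9599.5 and 6105 in keratinocytes. With 10 NK or innate lymphoid cells and 10 dendritic cells, RP_UV gave 1 and 3 UMIs, too few to compare. T cells of WT_UV were 3.41-fold (1.41 to 10.7) and NK or innate lymphoid cells 4.36-fold (1.16 to 36.7) above WT_Ctrl, on 5 and 2 UMIs in WT_Ctrl, and the composition of these mixed classes was not tested.

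Cells with macrophage markers held 13, 132 and 8 Kit UMIs. Of these, 9, 111 and 3 lay in the 346, 659 and 123 cells that also had at least 2 dendritic cell markers, leaving 0.447, 0.654 and 0.359 CPM in the rest, close to keratinocytes. Kit in other cells as a whole was 3.57, 6.76 and 1.79 CPM, 3.77-fold (2.82 to 5.13) lower in RP_UV than in WT_UV. The counts of T cells (324, 668 and 57), dendritic cells (116, 133 and 10) and NK or innate lymphoid cells (33, 124 and 10) moved the same way. Median depth of the other cells differed too, at 10737 UMIs in WT_UV and 3796 in RP_UV. Whether the cell counts gave the Kit difference was not tested.

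**Figure D5:**
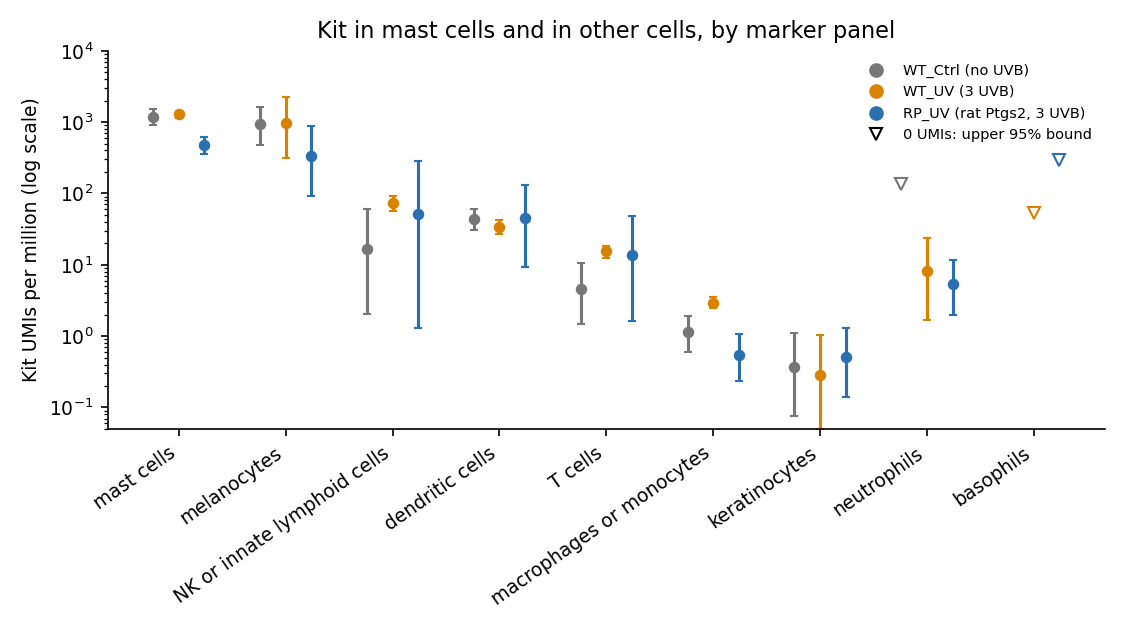
Kit CPM (log axis) by library in mast cells and in cells classed by marker panels, with exact Poisson 95% intervals and open triangles for the upper bound where no UMI was counted. Melanocyte-marker cells lie near mast cells, lymphoid and dendritic cells between 4.52 and 72.6, and keratinocytes below 1.

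The surroundings of the 9 genes were read from 8 lists with 66 other genes of mast cells and basophils. WT_UV over WT_Ctrl, 46 were measured, 6 of them at least 2-fold higher (16.6% of all genes measured were) and 0 lower (8.42%). RP_UV over WT_UV, 8 were higher (11.4%) and 11 lower (17.7%) of 46. RP_UV over WT_Ctrl, 9 were higher (20.8%) and 8 lower (12.7%) of 41. The purer set gave 5 and 1 of 41, 4 and 7 of 40, and 3 and 4 of 32. Over all genes measured in the purer set, 17.7% were higher and 8.89% lower in WT_UV over WT_Ctrl, 8.08% and 18.3% in RP_UV over WT_UV, and 15.2% and 13% in RP_UV over WT_Ctrl.

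Of 10 other granule proteases, 5 were measured in each comparison with WT_UV. Tpsg1, a membrane-anchored tryptase, stood at 747, 436 and 328 CPM, 1.71-fold (1.17 to 2.46) lower in WT_UV and 2.28-fold (1.42 to 3.68) lower in RP_UV than in WT_Ctrl. The purer set gave 1.43-fold (0.961 to 2.08) and 2.04-fold (1.14 to 3.79). Ctsg, cathepsin G, stood at 182, 190.0 and 93.6, on 10, 51 and 10 UMIs. The lysosomal proteases Ctsl and Ctsd were 5.95-fold (4.09 to 8.79) and 2.98-fold (2.24 to 3.99) higher in RP_UV than in WT_UV. Both are abundant in macrophages, whose markers were also highest in the mast cells of RP_UV. In the purer set these markers were still higher in RP_UV than in WT_UV, at 413 against 182 CPM. Whether macrophage RNA gave these folds was not tested. The purer set held 9 UMIs of Ctsl in WT_UV and 2 in RP_UV, while Ctsd was 2.65-fold (1.73 to 4.01) higher in it.

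Of 8 genes of granule matrix and amines, Tph1, which makes serotonin, had 3, 67 and 15 UMIs and was 4.57-fold (1.5 to 22.7) higher in WT_UV than in WT_Ctrl, and 5.27-fold (1.72 to 26.3) in the purer set. Slc18a2, which loads amines into granules, and Ndst2, which sulfates the heparin of granules, were 2.22-fold (1.43 to 3.59) and 2.31-fold (1.35 to 4.21) lower in RP_UV than in WT_UV by the main gate. The purer set gave 1.47-fold (0.886 to 2.58) and 1.36-fold (0.731 to 2.78) lower, with intervals that included no difference. Lamp1, a lysosome membrane gene, was 2.51-fold (1.84 to 3.43) higher by the main gate and 6 against 36 UMIs, a ratio of 0.661 (0.228 to 1.58), in the purer set.

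Downstream of the IgE receptor, 11 of 12 signalling genes were measured in both comparisons of neighbouring groups. None was 2-fold higher in RP_UV than in WT_UV (11.4% of all genes were). Only 1, Btk, was lower (17.7% were), at 7 against 37 UMIs and 2.1-fold (0.925 to 5.59). Fyn, Inpp5d and Lat2, a kinase, a lipid phosphatase and an adaptor, were 1.65-fold (0.706 to 4.46), 1.95-fold (1.01 to 4.14) and 1.35-fold (0.878 to 2.14) lower. The median log2 fold of this list was -0.66, and -0.64 in the purer set. There 4 of 9 were lower (18.3% of all genes were), on 1 to 3 UMIs in RP_UV and with intervals that included no difference.

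Among 9 other receptor genes, Csf2rb and Csf2rb2, beta chains of cytokine receptors, were 2.4-fold (1.33 to 4.76) and 5.22-fold (1.37 to 44.2) higher in WT_UV than in WT_Ctrl. Csf2rb was 2-fold (1.33 to 3.12) lower in RP_UV than in WT_UV by the main gate and 1.73-fold (1 to 3.2) in the purer set. Adora3, an adenosine receptor, was 2.11-fold (1.25 to 3.77) lower in RP_UV, and 1.31-fold (0.735 to 2.52) lower in the purer set. Cd200r3 stood at 219, 320.3 and 253 CPM, without a 2-fold difference.

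Of 6 transcription factors, 4 were measured between the irradiated libraries, and 3 of these were at least 2-fold lower in RP_UV (17.7% of all genes were). They were Tal1, Mitf and Bhlhe40 (2 against 12 UMIs, named after its values were seen). Like Ms4a2 and Kit, Tal1 and Mitf were highest in WT_UV. Tal1 had 9, 93 and 6 UMIs, 164, 346 and 56.2 CPM, and was 6.17-fold (2.73 to 17.2) lower in RP_UV than in WT_UV. Mitf had 7, 65 and 9 UMIs and was 2.87-fold (1.42 to 6.56) lower. They were 3.33-fold (1.36 to 10.6) and 3.86-fold (1.24 to 19.4) lower in the purer set, on 5 and 3 UMIs in RP_UV. Gata2 stood at 1001, 741 and 384, 1.93-fold (1.37 to 2.77) lower in RP_UV than in WT_UV, and 1.37-fold (0.927 to 2.07) lower in the purer set. WT_UV over WT_Ctrl, Tal1 was 2.11-fold (1.07 to 4.77) higher.

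Ligands of Kit and growth factors were not measured in mast cells, as 0 of 4 genes reached 10 UMIs. Of 6 genes of lipid mediators, Hpgds, which makes prostaglandin D, stood at 473, 346 and 206 CPM. Alox5ap had 4, 68 and 82 UMIs in 2, 15 and 15 cells, 3.03-fold (2.17 to 4.24) higher in RP_UV than in WT_UV, but 5 and 6 UMIs in the purer set. Ptgs2 had 0, 14 and 20 UMIs, and 0, 4 and 0 in the purer set. Whether reads of the rat transgene were counted as mouse Ptgs2 was not tested. Of 11 cytokines, Ccl2 stood at 637, 771 and 1657 CPM, 2.15-fold (1.75 to 2.64) higher in RP_UV than in WT_UV and 1.42-fold (1.02 to 1.97) in the purer set. Il4, Tnf and Tgfb1 did not differ 2-fold between irradiated libraries.

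Genes with patterns most like those of 3 members were sought over classes of cells by library, by Pearson's r of log2(CPM + 10) among genes with at least 50 UMIs. Over 30 sets of at least 20 cells, Cpa3 was followed by Mcpt4 at an r of 0.998, Mrgprb1, Tpsb2 and Mrgprb2 at 0.997 and Tpsg1 at 0.996. Mast cells made up 3 of these sets. Cpa3, Mcpt4, Tpsb2 and Kit helped to choose the mast cells, so that r between these genes follows in part from the gate. Kit was followed by Myb at 0.948, Il4 at 0.930, Ms4a2 at 0.924, Mrgprb1 at 0.921 and Ctsg at 0.920. Basophils were too few for sets of 20 cells, so for Mcpt8 sets of at least 10 cells were used, a choice made after the data had been seen. Over these 35 sets it was followed by Rnase12 at 0.986, Lif at 0.985, Fam3b at 0.980, Gm36888 at 0.978 and Gfi1b at 0.967, and a single set held basophils. Mcpt8 itself was required of the basophils. The sets share 3 libraries, and the correlations are descriptions.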

How the data were processed

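The authors deposited 1 matrix of raw UMI counts per library, made with Cell Ranger 6.1.1 per the file headers on build mm10 per the labels, with files of gene names and cell barcodes. Counts came from droplet 3′ libraries of CD45-enriched dorsal skin, 1 library per group, and 34985549 to 82722013 UMIs per library limit the precision. Cells were kept by the limits in the study's methods (mitochondrial share under 10%, over 200 genes, under 4000 genes or 6000 in WT_UV). The sources used here name no doublet caller and none was run. Cells with at least 3 markers of another type were instead counted and left out in an alternative.

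UMIs were summed per library and cell class with Python 3.11.15, numpy 2.4.6 and scipy 1.17.1, and figures drawn with matplotlib 3.10.9. Levels have exact Poisson intervals, folds exact conditional binomial intervals and shares exact binomial (Clopper-Pearson) intervals at 95%. A gene was called at a fold of 2 with at least 10 UMIs over both libraries, and a count of 0 was set to a floor of 3 for bounds. Scripts were tested on simulated data. All 9 members are named, with at most 4 genes per list, those of largest fold in mast cells among genes with at least 30 UMIs. Other names are marked as chosen after their values were seen. The members and lists were chosen with earlier results of these data known. Alternatives varied the gates, filters, scaling, fold and depth.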

Additional observations from a re-analysis of the deposited data

How the results depend on the processing

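No paired analysis was possible because each group held 1 library, and no replicate could be left out. No member called at 2-fold changed direction, but members under 2-fold did. With at least 2 gate genes, WT_UV over WT_Ctrl turned from 1.13-fold higher to 2.31-fold lower for Fcer1a and from 1.09-fold higher to 2.17-fold lower for Kit. Over all kept cells, RP_UV over WT_UV turned from a ratio of 1.01 to 0.595 for Cma1 and from 1.01 to 0.582 for Tpsb2 with fewer than 4000 genes in every library. In mast cells, the count of members 2-fold higher in WT_UV than in WT_Ctrl (0) became 2 at a fold of 1.5 or scaled to the UMIs of Cpa3, Mcpt4 and Cma1, and 1 with the mean over cells, at least 4 gate genes, the thinned gate, cells with other markers left out, or the purer set. The count lower (1) became 6 with at least 2 gate genes and 4 with a gene's own detection left out of a gate of 2 of the other 4. The count lower in RP_UV than in WT_UV (2) became 1 with at least 4 gate genes and 0 with at least 2 gate genes, other-marker cells left out, or the purer set. The count lower in RP_UV than in WT_Ctrl (3) became 6 with at least 2 gate genes, 5 at a fold of 1.5, 1 with the mean over cells, and 0 with at least 4 gate genes, the thinned gate, other-marker cells left out, protease scaling or the purer set. Over all kept cells, the count higher in WT_UV (4) became 8 with fewer than 4000 genes in every library or the mean over cells. RP_UV over WT_UV, the count higher (1) became 0 with fewer than 4000 genes, and the count lower (3) became 5 with that limit or a fold of 1.5 and 6 with the mean over cells. RP_UV over WT_Ctrl, the count lower (0) became 1 at a fold of 1.5. With at least 3 Mcpt8 UMIs, the RP_UV basophils had 7307 CPM of Mcpt8 and 0 of Fcer1a. Thinned to 1000 UMIs, Fcer1a was seen in 0% of WT_Ctrl, 7.23% of WT_UV and 17.6% of RP_UV mast cells, against 2.94%, 1.96% and 18.4% at 500 UMIs. The gate of at least 2 genes added 37 deep cells in WT_UV, with a median of 13892 UMIs but 2 UMIs of the gate genes. In WT_Ctrl it added 3 cells. The cause of these changes was not tested. The 2-fold calls of Fcer1a for RP_UV and of Tpsb2 for WT_UV over WT_Ctrl held under all 15 alternatives.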
